A study of Mus musculus with 10 samples.

Results

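The meningeal, fibroblast and extracellular matrix genes are a set of 36 genes, listed by symbol, out of 25050 genes in a deposited table of RNA counts from whole mouse brains. They cover fibrillar and other collagens, small leucine-rich proteoglycans, collagen-processing enzymes, matrix glycoproteins, secreted growth factors and serpins, transporters and receptors of the leptomeninges, and retinoic acid genes. All 36 symbols were found once in the table, and all 36 were among the 14526 genes with enough counts to be tested. The libraries came from 5 brains of Abcc5 knockout mice (Abcc5-/-) and 5 brains of wildtype mice (Abcc5+/+), all on the FVB/NJ background. Abcc5 encodes an ABC transporter that exports organic anions, and the comparison addresses what differs in brain RNA without it. The brains were taken after CO2 asphyxiation and frozen, and polyadenylated RNA was sequenced. Age and sex are not given in the sources used here.

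The leptomeninges are the thin membranes, arachnoid and pia, that cover the brain. Their fibroblasts secrete fibrillar collagens, proteoglycans such as decorin, insulin-like growth factor 2 and retinoic acid, while the brain tissue beneath them is built on a matrix that is poor in fibrillar collagen. Perivascular fibroblasts around larger vessels and the stroma of the choroid plexus make many of the same proteins. A brain homogenate therefore holds these transcripts as a small share of its RNA.

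Total counts ran from 7731294 to 23588335 per library. Knockout replicates 2 and 4 and wildtype replicate 1 had at least 19795743 counts, and the other 7 libraries had at most 11479995. The Abcc5 transcript averaged 218.8 ± 5.95 CPM (counts relative to the library total scaled by TMM) in knockout brains and 311.1 ± 12.6 CPM in wildtype brains (SD, n = 5 each), so it was reduced and not absent. Knockout replicate 3 stood apart from the other libraries: the summed level of cerebellar marker genes was 109.1 CPM there, against 1300 to 1490 CPM in the other knockout libraries and 1231 to 1337 CPM in wildtype libraries. Markers of neurons, astrocytes and oligodendrocytes, which check the tissue label, summed to at least 3541 CPM in every library. By edgeR, 171 of the 14526 tested genes passed an adjusted p of 0.05. That count moved by over 1.5 times without wildtype replicates 2, 3, 4 or 5 (112, 88, 76 and 78 genes) or knockout replicates 1, 2, 3 or 4 (105, 87, 341 and 87 genes).

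None of the 36 genes rose or fell at an edgeR adjusted p of 0.05, where 1.18% of all tested genes did. Taking an unadjusted p under 0.05 instead, 6 genes were lower and 3 higher in knockout brains, beside 8.03% of all tested genes lower and 6.74% higher. Without knockout replicate 5, 13 of the 36 genes were lower at that level, and with any other library left out 5 to 8 were. Knockout replicate 5 was the knockout library with the highest median deviation of the 36 genes from the wildtype mean, 0.113. The share of all tested genes at that level is not given for these fits, so these counts cannot be set against it. With all libraries, the lower ones were Col3a1, Igf2, Fmod, Dcn, Pcolce and Slc22a6, and the higher ones were Col5a1, Pdgfra and Eln. The fitted log2 fold change, knockout over wildtype, was below 0 for 27 of the 36 genes, against 48.4% of all tested genes. Its median was -0.11 over the 36 genes and 0.0042 over all tested genes, and its range was -0.48 to 0.36. The median of the 36 genes was -0.065 without wildtype replicate 1 and -0.18 without knockout replicate 5. The groups did not overlap for 1 of the 36 genes, Fmod, against 4.19% of all tested genes. The call depended on the library set and the tool. Col3a1 passed without knockout replicate 2 or 3 or wildtype replicate 5 (edgeR adjusted p 0.0271, 0.0428 and 0.0469), and Igf2 passed without knockout replicate 2 (0.0154). By other settings, 2 of the 36 genes passed without a low-count filter, by the DESeq2 Wald test, after removing each library's GC trend and at a threshold of 0.1, where 0.774%, 1.78%, 1.9% and 2.57% of all tested genes did. With depth class as a term 3 passed, beside 1.55% of all tested genes, and by limma-voom with sample weights 1 passed, beside 3.88%. None passed with DESeq2 size factors, upper-quartile scaling, the replicate number as a block, a filter of 1 CPM in 5 libraries, limma-voom or the 7 shallower libraries, beside 1.17%, 1.04%, 0.62%, 1.16%, 1.27% and 0.214% of all tested genes. Over all tested genes, the share called without knockout replicates 1 to 5 was 0.712%, 0.6%, 2.31%, 0.599% and 1.27%, and without wildtype replicates 1 to 5 it was 1.56%, 0.771%, 0.597%, 0.523% and 0.529%. In the authors' deposited table, the adjusted p was lowest for Col3a1, at 0.0879. In whole tissue, fewer cells of a type and less RNA per cell cannot be told apart.

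**Figure D1:**
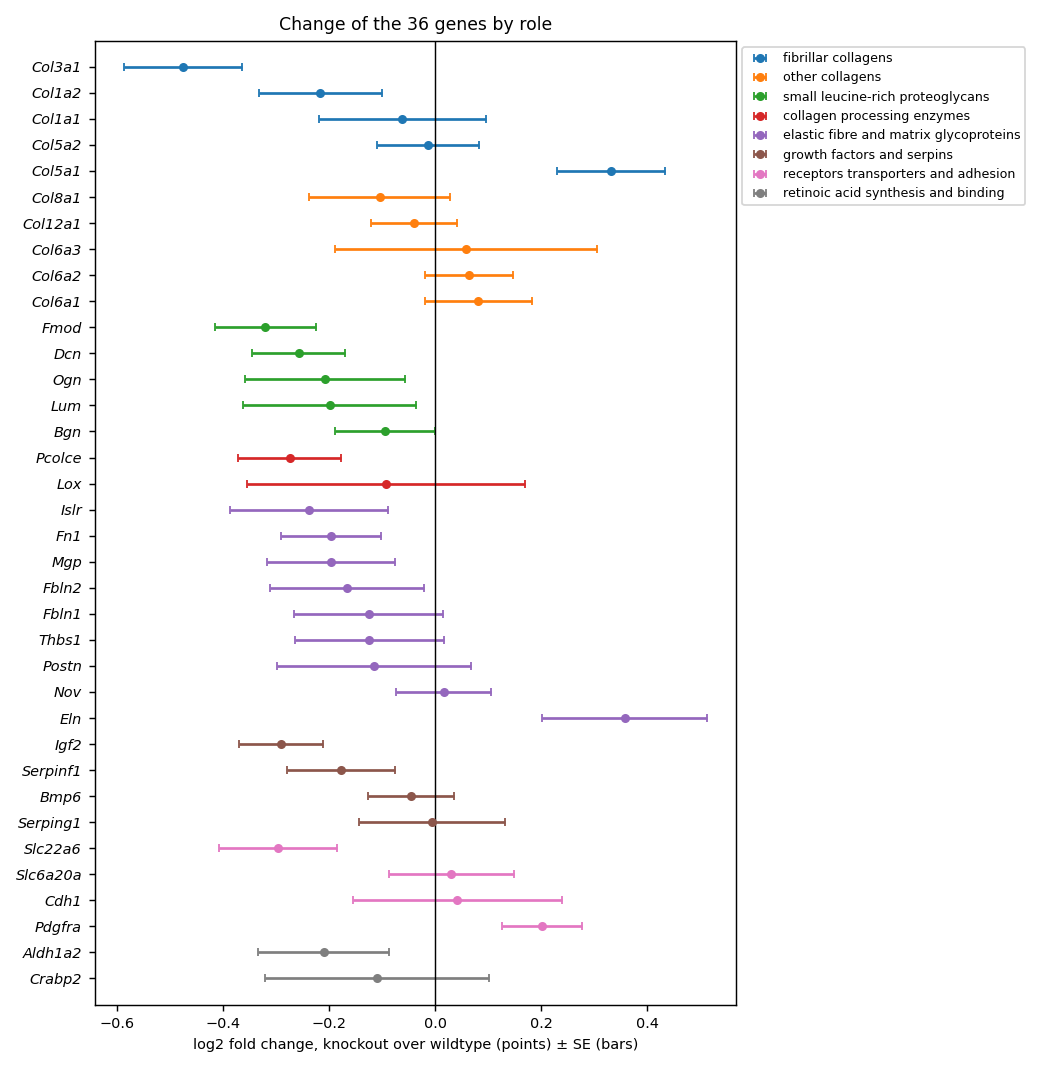
Fitted log2 fold change (knockout over wildtype, horizontal axis) with its SE as bars for each of the 36 genes, coloured by role. Points spread from -0.48 for Col3a1 to 0.36 for Eln, and all 5 small leucine-rich proteoglycans lie below 0.

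The fibrillar collagens, which assemble into the tension-bearing fibres of connective tissue, had fitted values of both signs, and none passed. Col3a1 encodes the chain of type III collagen. Its level was 6.60, 8.43, 5.80, 6.69 and 7.20 CPM in knockout replicates 1 to 5, against 11.1, 9.82, 9.68, 10.0 and 8.05 CPM in wildtype replicates 1 to 5. All 5 knockout libraries lay under the wildtype mean, 4 lay under every wildtype library, and knockout replicate 2 overlapped wildtype replicate 5. The group means were 6.95 ± 0.968 CPM in knockout and 9.73 ± 1.09 CPM in wildtype brains (SD, n = 5 each), a log2 fold change of -0.48 (SE 0.11, edgeR adjusted p 0.0522). This was the smallest p-value among the 36 genes. Within the 3 deeper libraries the log2 difference was -0.55, and within the 7 shallower ones it was -0.51. Here and below, the deeper libraries hold only 1 wildtype library, replicate 1. That library was the highest of the 10 for Col3a1, Igf2 and Pcolce.

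Col5a1, with a fitted value above 0, encodes the alpha-1 chain of type V collagen, which is built into fibres of type I collagen and limits their width. Its level was 40.5, 46.2, 58.8, 58.2 and 52.0 CPM in knockout replicates 1 to 5, against 47.2, 43.1, 34.7, 38.6 and 38.0 CPM in wildtype replicates 1 to 5. Knockout replicates 3, 4 and 5 were above every wildtype library, while knockout replicates 1 and 2 lay within the wildtype values. The fitted log2 fold change was 0.33 (SE 0.10, edgeR adjusted p 0.139). Deeper libraries gave a log2 difference of 0.14 and shallower ones 0.37. Its partner chain Col5a2 had 11.8 ± 1.499 CPM in knockout and 11.9 ± 1.06 CPM in wildtype brains (SD, n = 5 each), a log2 fold change of -0.014. Col5a2 lies 24.6 kb from Col3a1 on chromosome 1 by the table's own positions, which are given there without a build. The neighbours thus had fitted changes of -0.014 and -0.48, and the difference between them was not tested.

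Type I collagen, the main fibre of the membranes, is made of chains from Col1a1 and Col1a2. Col1a2 had 19.7, 29.5, 18.3, 23.1 and 30.9 CPM in knockout replicates 1 to 5, against 30.1, 28.7, 27.4, 28.8 and 27.5 CPM in wildtype replicates 1 to 5. The wildtype libraries were close together, and the knockout libraries spread on both sides of them, with replicates 1, 3 and 4 below and replicate 5 above. This gave a log2 fold change of -0.22 (SE 0.12, edgeR adjusted p 0.409). Col1a1 was also lowest in knockout replicates 3 and 1, while replicates 2 and 5 were above every wildtype library, with 10.4, 17.5, 9.37, 12.3 and 18.3 CPM in knockout replicates 1 to 5, against 12.7 to 17.0 CPM in wildtype libraries. Its log2 fold change was -0.062, and it turned positive without knockout replicate 1 or 3 or wildtype replicate 1.

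**Figure D2:**
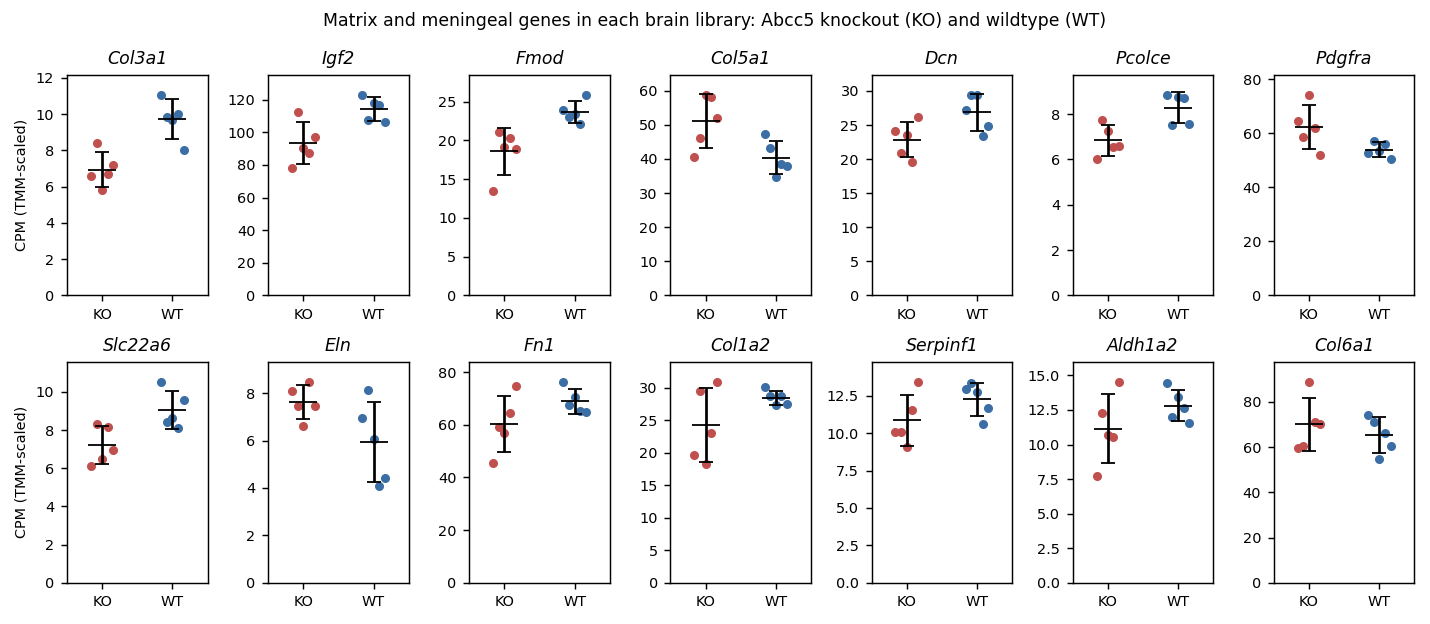
CPM scaled by TMM (vertical axis, from 0) in each library for 14 of the genes, with knockout libraries on the left and wildtype libraries on the right of each panel. Black marks give the mean and SD of 5 libraries, and the groups overlap in each panel except that of Fmod, where the highest knockout library has 21.1 CPM and the lowest wildtype library 22.2 CPM.

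The promoters of Col3a1 and Col1a2 are shown because both genes had their lowest levels in knockout replicates 3 and 1, while their fitted changes differed in size. Each line gives the 250 bases before the RefSeq transcript start, 5′ to 3′ on the gene's strand, from the GRCm38.p6 build. The Col3a1 window is chr1:45311288-45311537 and the Col1a2 window is chr6:4505368-4505617, both on the plus strand. Capitals mark matches on either strand to CCAAT, the core bound by the factor NF-Y, or to ACGTG, a form of the hypoxia response core. Other forms of that core were not searched. No match to GAANNTTC, the core of a heat shock element, was in either window.
Col3a1: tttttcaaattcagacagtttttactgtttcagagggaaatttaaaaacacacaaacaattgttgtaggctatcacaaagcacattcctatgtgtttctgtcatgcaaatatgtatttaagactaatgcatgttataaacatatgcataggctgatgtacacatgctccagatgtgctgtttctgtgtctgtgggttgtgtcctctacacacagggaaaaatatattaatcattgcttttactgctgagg
Col1a2: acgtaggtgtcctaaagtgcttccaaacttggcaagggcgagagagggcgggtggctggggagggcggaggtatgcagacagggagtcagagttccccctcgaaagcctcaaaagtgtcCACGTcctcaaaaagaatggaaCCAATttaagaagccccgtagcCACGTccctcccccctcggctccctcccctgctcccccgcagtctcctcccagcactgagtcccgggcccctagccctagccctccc
The Col1a2 window held 1 CCAAT and 2 ACGTG matches, with the CCAAT starting 109 bases before the start, and no marked motifs overlapped. The Col3a1 window, with a GC content of 35.2% against 62.0% for Col1a2, held none of the 3 motifs. Among all 32851 promoter windows of this length in the RefSeq table, 33.8% held CCAAT, 16.6% held ACGTG and 6.69% held GAANNTTC. Windows were present for 22 of the 36 genes, 28 windows in all, of which 5 held CCAAT, 8 held ACGTG and 0 held GAANNTTC. A match in a sequence describes letters only.

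None of the other 5 collagens passed, and their log2 fold changes ran from -0.10 to 0.081. Col6a1, Col6a2 and Col6a3 encode the chains of type VI collagen, which forms beaded filaments around cells. Col6a1, the most abundant of the group per kilobase of transcript, had 59.5, 60.5, 88.8, 71.3 and 70.1 CPM in knockout replicates 1 to 5, against 74.3, 71.0, 54.7, 66.0 and 60.7 CPM in wildtype replicates 1 to 5. The groups overlapped throughout, with knockout replicate 3 the highest of the 10 libraries, and the log2 fold change was 0.081 (SE 0.10, edgeR adjusted p 0.761), or -0.0097 without knockout replicate 3. Col6a2, 85.2 kb away on chromosome 10, had a log2 fold change of 0.064.

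Col6a3 was uneven between libraries. Its level was 6.83, 15.7, 8.71, 22.2 and 19.2 CPM in knockout replicates 1 to 5, against 14.6, 15.3, 8.52, 17.8 and 16.9 CPM in wildtype replicates 1 to 5. It was low in knockout replicates 1 and 3 and in wildtype replicate 3, and its highest library had 3.25 times the level of its lowest. The fitted log2 fold change was 0.058 while the mean was 14.5 ± 6.61 CPM in knockout and 14.6 ± 3.64 CPM in wildtype brains (SD, n = 5 each), so the fit and the means differed in sign. Col12a1, a collagen that bridges fibres, and Col8a1, a short-chain collagen of vessels and basement membranes, had log2 fold changes of -0.040 and -0.10.

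Small leucine-rich proteoglycans bind collagen fibrils and set their spacing and width. All 5 had fitted values below 0, from -0.32 to -0.094, and none passed. Fmod, fibromodulin, had 13.4, 21.1, 19.1, 20.4 and 18.9 CPM in knockout replicates 1 to 5, against 24.0, 23.0, 23.4, 22.2 and 25.9 CPM in wildtype replicates 1 to 5. Every knockout library was below every wildtype library, and replicate 1 was well below the other knockouts. The means were 18.6 ± 3.01 CPM in knockout and 23.7 ± 1.41 CPM in wildtype brains (SD, n = 5 each), a log2 fold change of -0.32 (SE 0.095, edgeR adjusted p 0.129). The log2 difference was -0.21 within the deeper libraries and -0.47 within the shallower ones.

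Dcn, decorin, is a standard marker of fibroblasts. It had 24.1, 21.0, 23.61, 19.6 and 26.1 CPM in knockout replicates 1 to 5, against 27.2, 29.5, 29.4, 23.4 and 24.9 CPM in wildtype replicates 1 to 5. Each knockout library was under the wildtype mean, and 2 were under every wildtype library. Its log2 fold change was -0.26 (SE 0.088, edgeR adjusted p 0.186). For Dcn the deeper libraries gave a log2 difference of -0.42 and the shallower ones -0.12. Its lowest library was knockout replicate 4, not replicate 1. Lum, lumican, lies 47.4 kb from Dcn and had 2.51 to 3.64 CPM in knockout libraries, against 2.19 to 3.93 CPM in wildtype libraries.

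Ogn, osteoglycin, ran from 5.56 CPM in replicate 1 to 12.3 CPM in replicate 5 of the knockout, against 9.68 to 11.4 CPM in wildtype libraries. The knockout libraries thus lay on both sides of the wildtype range, as for Col1a2. Bgn, biglycan, had a log2 fold change of -0.094 at an edgeR adjusted p of 0.690. The Ogn gene overlaps Cenpp in the table, whose mean level was 1.36 CPM, and reads were not known to be counted by strand.

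Pcolce encodes an enhancer of the protease that trims procollagen before fibres form. It had 6.02, 7.74, 7.26, 6.57 and 6.59 CPM in knockout replicates 1 to 5, against 8.86, 7.52, 8.77, 8.72 and 7.58 CPM in wildtype replicates 1 to 5. Of the knockout libraries 4 were below every wildtype library, and replicate 2 overlapped. The fitted log2 fold change was -0.27 (SE 0.097, edgeR adjusted p 0.203), with -0.31 within the deeper libraries and -0.29 within the shallower ones. Lox, the enzyme that crosslinks collagen and elastin, was the least abundant of the 36 genes per kilobase of transcript, with 4 to 32 counts per library, and its log2 fold change of -0.093 had an SE of 0.26.

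Among matrix glycoproteins, Fn1 encodes fibronectin, a scaffold to which cells attach and on which collagen is laid down. It had 45.5, 59.3, 57.0, 64.5 and 74.7 CPM in knockout replicates 1 to 5, against 76.3, 67.6, 70.7, 65.1 and 65.0 CPM in wildtype replicates 1 to 5. The first 4 knockout libraries were below every wildtype library, and replicate 5 lay near the top of the wildtype range. This gave a log2 fold change of -0.20 (SE 0.095, edgeR adjusted p 0.354).

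Eln encodes elastin, the rubber-like protein of artery walls, and was higher on average in knockout. It had 8.11, 7.47, 6.60, 8.47 and 7.45 CPM in knockout replicates 1 to 5, against 6.95, 8.12, 6.06, 4.10 and 4.43 CPM in wildtype replicates 1 to 5. Here the wildtype group was the uneven one, with replicates 4 and 5 low. The means were 7.62 ± 0.718 CPM in knockout and 5.93 ± 1.69 CPM in wildtype brains (SD, n = 5 each), a log2 fold change of 0.36 (SE 0.15, edgeR adjusted p 0.298). Summed markers of pericytes and smooth muscle, the cells of vessel walls, were 211.8 to 228.1 CPM in knockout and 189.6 to 233.0 CPM in wildtype libraries, lowest in wildtype replicate 5. Without Rgs5, the most abundant, they summed to 135.4 to 148.1 CPM in knockout and 118.1 to 154.6 CPM in wildtype libraries. Of the 8 tested markers none passed and 4 had log2 fold changes below 0, among them Tagln at -0.29 and Acta2 at -0.21. The others were above 0, such as Pdgfrb at 0.070. Their part in the Eln values was not tested.

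The other glycoproteins had log2 fold changes from -0.24 to 0.016. Islr, an immunoglobulin-domain protein of fibroblasts, had 9.61 CPM in knockout replicate 1, its lowest library, and 23.0 CPM in knockout replicate 5, its highest, against 17.3 to 22.4 CPM in wildtype libraries. Mgp, an inhibitor of calcification, had 7.53 to 11.96 CPM in knockout libraries, against 10.2 to 12.3 CPM in wildtype libraries. The fibulins Fbln1 and Fbln2, which link elastic fibres to basement membranes, had log2 fold changes of -0.13 and -0.17, Thbs1 (thrombospondin 1) -0.12 and Postn (periostin) -0.12. Nov, a secreted matricellular protein that neurons also make, differed least, at 53.3 ± 8.43 CPM in knockout and 52.9 ± 4.22 CPM in wildtype brains (SD, n = 5 each).

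Igf2, a growth factor that the leptomeninges and choroid plexus release into the cerebrospinal fluid, was the most abundant of the 36 genes per kilobase of transcript. Its level was 78.4, 112.7, 90.4, 87.2 and 97.4 CPM in knockout replicates 1 to 5, against 123.1, 107.4, 118.2, 116.5 and 106.3 CPM in wildtype replicates 1 to 5. All knockout libraries except replicate 2 were below every wildtype library. The means were 93.2 ± 12.9 CPM in knockout and 114.3 ± 7.22 CPM in wildtype brains (SD, n = 5 each), a log2 fold change of -0.29 (SE 0.079, edgeR adjusted p 0.0951). Within the deeper libraries the log2 difference was -0.31, and within the shallower ones -0.34. Summed choroid plexus markers were 554.2 to 677.1 CPM in knockout and 579.6 to 683.5 CPM in wildtype libraries, lowest in knockout replicate 3. Most of that sum was Ttr, and without Ttr the other 8 markers summed to 74.0 to 85.3 CPM in knockout and 79.6 to 97.5 CPM in wildtype libraries. The median log2 fold change of the 9 choroid plexus markers was -0.12, close to that of the 36 genes, and none passed. Of the 9 markers 5 had values below 0, with -0.39 for Kcnj13, -0.29 for Otx2, -0.19 for Kl, -0.13 for F5 and -0.12 for Sostdc1. The others did not, among them Ttr at 0.011 and Clic6 at 0.083. Their part in the Igf2 values was not tested.

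The secreted factors beside Igf2 differed less. Serpinf1 encodes PEDF, an inhibitor of vessel growth. It had 10.1, 10.1, 9.10, 11.6 and 13.4 CPM in knockout replicates 1 to 5, against 12.9, 13.3, 12.8, 10.6 and 11.7 CPM in wildtype replicates 1 to 5. The first 3 knockout libraries were below every wildtype library and replicate 5 was above them all, with a log2 fold change of -0.18 (SE 0.10, edgeR adjusted p 0.438). Serping1, the C1 inhibitor of complement, had 6.07 to 12.9 CPM in knockout libraries, against 8.81 to 10.1 CPM in wildtype libraries, and a log2 fold change of -0.0062. Bmp6, a growth factor of the BMP family, had -0.045, and its gene overlaps Txndc5, which had a mean of 61.7 CPM.

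Among transporters and receptors, Slc22a6 encodes an organic anion transporter of the leptomeninges, OAT1. It had 6.14, 8.34, 6.46, 8.13 and 6.96 CPM in knockout replicates 1 to 5, against 10.5, 8.42, 8.64, 8.11 and 9.57 CPM in wildtype replicates 1 to 5. All 5 knockout libraries lay under the wildtype mean, and knockout replicates 2 and 4 overlapped the wildtype range. Its log2 fold change was -0.30 (SE 0.11, edgeR adjusted p 0.227). Slc6a20a, a proline transporter, had 0.031. Cdh1, E-cadherin, which joins arachnoid barrier cells, had a fitted 0.042 while its mean was 3.88 ± 1.34 CPM in knockout and 4.10 ± 0.607 CPM in wildtype brains (SD, n = 5 each).

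Pdgfra encodes a PDGF receptor that marks fibroblasts and, in the brain, oligodendrocyte precursors. It had 64.4, 58.8, 74.3, 61.9 and 51.9 CPM in knockout replicates 1 to 5, against 52.8, 57.0, 53.3, 56.2 and 50.3 CPM in wildtype replicates 1 to 5. Of the knockout libraries 4 were above every wildtype library. The fitted log2 fold change was 0.20 (SE 0.075, edgeR adjusted p 0.224), opposite in sign to most of the fibroblast genes. Summed levels of 7 precursor markers were 199.2 to 233.7 CPM in knockout and 193.4 to 220.6 CPM in wildtype libraries. The precursor markers were lowest among the knockouts in replicate 5, which was also the lowest knockout library for Pdgfra. Their sum was highest in knockout replicate 4, while Pdgfra was highest in knockout replicate 3. Of the 7 markers none passed and 2 had log2 fold changes below 0, with -0.14 for Gpr17, 0.22 for Olig1 and 0.34 for Olig2. The part of these markers in the Pdgfra values was not tested.

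Retinoic acid from the meninges acts on the cortex in development. Aldh1a2, its synthetic enzyme in the meninges, had 7.76, 12.3, 10.7, 10.6 and 14.5 CPM in knockout replicates 1 to 5, against 14.5, 12.02, 13.4, 12.7 and 11.6 CPM in wildtype replicates 1 to 5. Knockout replicates 1, 3 and 4 were below every wildtype library, and the log2 fold change was -0.21 (SE 0.12, edgeR adjusted p 0.447). Crabp2, which carries retinoic acid to its nuclear receptors, had 2.93 ± 0.745 CPM in knockout and 3.01 ± 0.826 CPM in wildtype brains (SD, n = 5 each).

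The libraries differed in a way that most of these genes shared. Knockout replicate 1 was below the wildtype mean for 31 of the 36 genes, by a median of -0.30 on the log2 scale, and it was the lowest of the 10 libraries for 15 of them. Knockout replicate 3 was below the wildtype mean for 24 genes with a median of -0.17, but was the lowest library for 7 and the highest for another 7. Knockout replicates 2 and 4 lay close to wildtype, with medians of -0.036 and -0.051. Knockout replicate 5 was on the other side, with a median of 0.113, and was the highest library for 12 of the 36 genes. In wildtype libraries the median ran from -0.071 to 0.109. Over all tested genes the median deviation stayed between -0.001 and 0.009 in each of the 10 libraries.

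**Figure D3:**
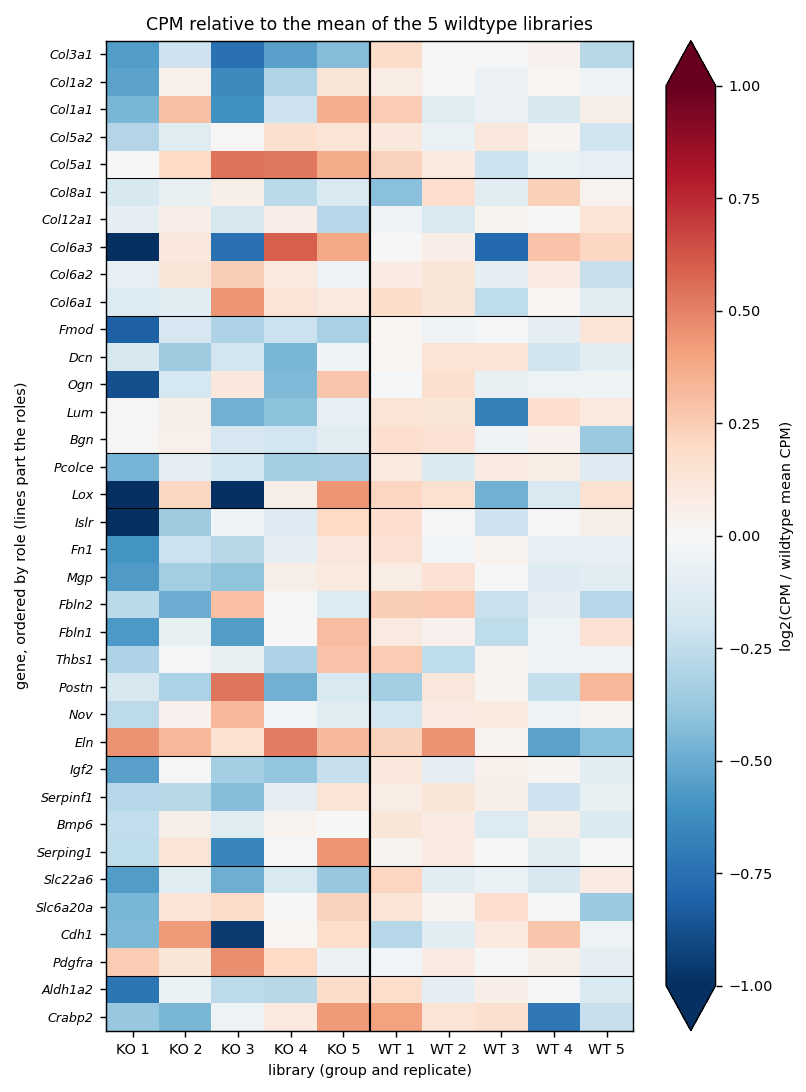
Log2 ratio of each library's CPM to the mean of the 5 wildtype libraries (colour) for the 36 genes (rows, by role) in knockout (left) and wildtype (right) libraries. Knockout replicate 1 is blue in most rows, while knockout replicate 5 holds the highest value of the 10 libraries for 12 genes.

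The spread within groups was wider in knockout brains. The SD of log2 CPM was larger among knockout than among wildtype libraries for 29 of the 36 genes, against 59.9% of all tested genes, and its median over the 36 genes was 0.235 in knockout and 0.149 in wildtype. Over all tested genes that median was 0.126 in knockout and 0.107 in wildtype, and 0.103 and 0.107 with knockout replicate 3 set aside. With knockout replicate 3 set aside, the SD was larger in knockout for 26 of the 36 genes, against 48.2% of all tested genes, and with knockout replicate 1 set aside for 24 of the 36, against 58.3%. Serping1 was among the genes with a large difference in spread, with 9.37 ± 2.58 CPM in knockout and 9.54 ± 0.482 CPM in wildtype brains (SD, n = 5 each). Eln went the other way, with 7.62 ± 0.718 CPM in knockout and 5.93 ± 1.69 CPM in wildtype brains.

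Summed olfactory bulb markers were 203.1, 214.4, 212.5, 257.0 and 270.0 CPM in knockout replicates 1 to 5, against 248.9 to 264.6 CPM in wildtype libraries. Most of that sum was Reln, an abundant neuronal gene. Without Reln the other 5 bulb markers summed to 23.62, 26.6, 77.8, 58.2 and 72.4 CPM in knockout replicates 1 to 5, against 60.2 to 84.0 CPM in wildtype libraries. They were lowest in knockout replicates 1 and 2. Knockout replicate 4 was just below the lowest wildtype library, and knockout replicates 3 and 5 were within the wildtype range. One of the 6 bulb markers fell, Eomes, a transcription factor of projection neurons of the bulb, with a log2 fold change of -1.27 at an edgeR adjusted p of 0.00805. Cerebellar markers summed to 1490 CPM in knockout replicate 1, the highest value of the 10 libraries, and to 109.1 CPM in knockout replicate 3. The part of the tissue sampled in the low values of the 36 genes was not tested.

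Genes of the leptomeninges outside the set gave a second view. Of 32 listed genes 30 were tested, none passed, 6 were lower and 1 was higher at an unadjusted p under 0.05, and 24 had values below 0, with a median log2 fold change of -0.10. Over all tested genes 1.18% passed, 8.03% were lower and 6.74% higher at that level, and 48.4% had values below 0. Gjb2, a connexin of meningeal gap junctions, averaged 9.21 ± 1.26 CPM in knockout and 11.8 ± 0.915 CPM in wildtype brains (SD, n = 5 each), a log2 fold change of -0.38 at an edgeR adjusted p of 0.0677. It passed without knockout replicate 5 (edgeR adjusted p 0.0211) and by limma-voom without and with sample weights (0.0477 and 0.0319). Ptgds, the prostaglandin D synthase of meninges and oligodendrocytes, had 454.2, 595.3, 522.1, 555.3 and 605.8 CPM in knockout replicates 1 to 5, against 601.9 to 651.4 CPM in wildtype libraries. It was again lowest in knockout replicate 1 and next lowest in knockout replicate 3. The median deviation of the 30 genes from the wildtype mean was -0.22 in knockout replicate 1, -0.20 in replicate 3, -0.11 in replicate 4, -0.024 in replicate 2 and 0.005 in replicate 5. The order of knockout libraries 1, 3, 4, 2 and 5, from low to high, was also that of the 36 genes. The lists come from the same libraries and were chosen for the same tissue.

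**Figure D4:**
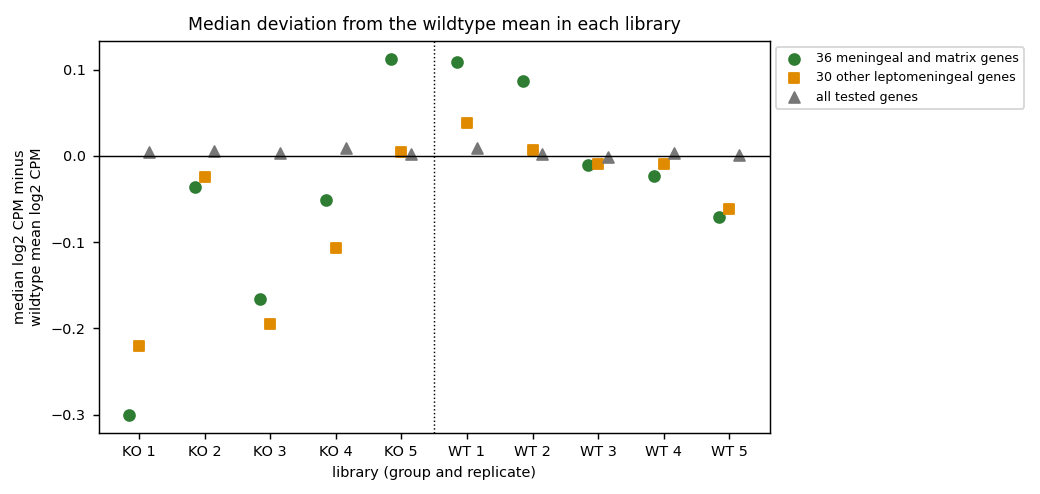
Median deviation from the wildtype mean on the log2 CPM scale (vertical axis) in each library, for the 36 genes, 30 other leptomeningeal genes and all tested genes. Knockout replicates 1 and 3 lie lowest for both gene lists, at -0.30 and -0.17 for the 36 genes, while all tested genes stay near 0.

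Collagen chains are hydroxylated and folded inside the cell before they are secreted. Of 20 tested genes for collagen synthesis and crosslinking, 2 fell and 1 rose at an edgeR adjusted p of 0.05. Over all tested genes 0.964% fell and 0.213% rose. The list was chosen with earlier results of these data known, so these counts are no test of the pathway. The median log2 fold change of the list was -0.06, and 12 of the 20 genes had values below 0, against 48.4% of all tested genes. P4ha1, a catalytic subunit of the prolyl hydroxylase that stabilises the collagen helix, had 41.5, 42.1, 53.4, 43.2 and 43.8 CPM in knockout replicates 1 to 5, against 61.7, 64.5, 63.2, 66.9 and 64.4 CPM in wildtype replicates 1 to 5. The groups did not overlap, and the gene fell to 44.8 ± 4.92 CPM in knockout, against 64.1 ± 1.93 CPM in wildtype brains (SD, n = 5 each). This gave a log2 fold change of -0.53 (SE 0.063, edgeR adjusted p 0.000426).

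Serpinh1 encodes HSP47, the chaperone of procollagen in the endoplasmic reticulum. It had 12.3, 15.5, 11.5, 12.8 and 12.1 CPM in knockout replicates 1 to 5, against 20.9, 17.5, 19.4, 20.1 and 18.7 CPM in wildtype replicates 1 to 5. The groups did not overlap, and the log2 fold change was -0.57 (SE 0.087, edgeR adjusted p 0.00327). In knockout replicate 5, P4ha1 and Serpinh1 lay within the values of the other knockouts, and both genes passed in each of the 22 alternatives run, at adjusted p-values of at most 0.0226 and 0.0150. Plod2, a lysyl hydroxylase of collagen, had a log2 fold change of -0.38 at an edgeR adjusted p of 0.112. Adamts3, a protease that cuts procollagen ends, rose to 46.5 ± 2.54 CPM in knockout, against 39.1 ± 1.79 CPM in wildtype brains (SD, n = 5 each, edgeR adjusted p 0.0343). The call of Adamts3 was lost without each library except knockout replicate 3 (edgeR adjusted p 0.0526 to 0.0942), with the replicate number as a block (0.0792) and when the 7 shallower libraries were fitted alone (0.131).

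**Figure D5:**
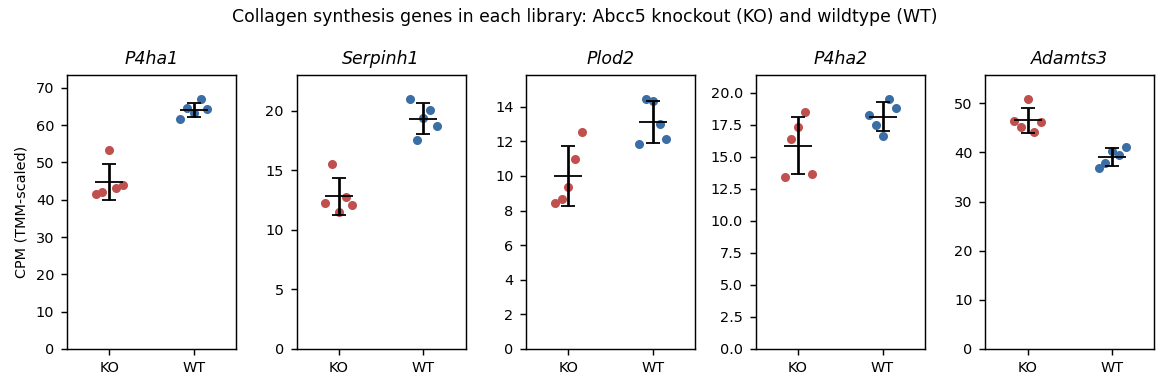
CPM scaled by TMM (vertical axis, from 0) in each library for 5 genes of collagen synthesis, with knockout libraries on the left and wildtype libraries on the right of each panel and black marks for the mean and SD of 5 libraries. P4ha1 and Serpinh1 were lower and Adamts3 was higher in knockout without overlap, while Plod2 and P4ha2 overlapped.

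The promoter windows of P4ha1 (chr10:59323046-59323295, plus strand) and Serpinh1 (chr7:99353240-99353489, minus strand) are shown because these were the genes of the pathway that fell. They are from the same RefSeq table and build, with capitals marking the same motifs.
P4ha1: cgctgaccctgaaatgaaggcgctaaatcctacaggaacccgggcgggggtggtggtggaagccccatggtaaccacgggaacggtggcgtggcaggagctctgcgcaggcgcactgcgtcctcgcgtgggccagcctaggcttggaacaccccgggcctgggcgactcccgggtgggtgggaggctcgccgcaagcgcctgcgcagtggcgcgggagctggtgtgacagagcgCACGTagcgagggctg
Serpinh1: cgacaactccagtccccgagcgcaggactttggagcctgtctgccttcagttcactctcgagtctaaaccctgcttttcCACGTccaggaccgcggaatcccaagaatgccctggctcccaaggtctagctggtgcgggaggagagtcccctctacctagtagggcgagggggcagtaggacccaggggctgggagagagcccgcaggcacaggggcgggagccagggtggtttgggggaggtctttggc
Each window held 1 ACGTG match on the reverse strand, starting 16 bases before the start in P4ha1 and 171 bases before it in Serpinh1. Neither held CCAAT or GAANNTTC.

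In the remaining lists of the pathway no gene passed with all libraries in edgeR. Basement membrane genes, 16 tested, had 1 lower and 2 higher at an unadjusted p under 0.05, beside 8.03% of all tested genes lower and 6.74% higher. The higher ones were Col4a2 and Col4a1, which encode chains of type IV collagen, with log2 fold changes of 0.27 and 0.18 (edgeR adjusted p 0.0993 and 0.260). Col4a5, another type IV chain, had -0.098. Col4a2 had 97.0, 91.3, 110.8, 97.7 and 76.3 CPM in knockout replicates 1 to 5, against 84.1, 75.3, 78.2, 79.5 and 72.9 CPM in wildtype replicates 1 to 5, so only knockout replicate 5 overlapped. Without that library Col4a2 passed (edgeR adjusted p 0.0150), as it did by the DESeq2 Wald test (0.0433) and limma-voom with sample weights (0.0343). Summed endothelial markers were 241.6 to 279.0 CPM in knockout and 244.1 to 258.4 CPM in wildtype libraries, highest in knockout replicate 3, and their part was not tested.

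Of 18 genes of TGF-beta signalling, a pathway that drives collagen expression, 3 were lower and 1 was higher at an unadjusted p under 0.05. Over all tested genes 8.03% were lower and 6.74% higher at that level. The lower ones were Skil, Smad7 and Ctgf, and the higher one was Ltbp1. Ltbp1, which stores the latent factor in the matrix, had a log2 fold change of 0.31 at an edgeR adjusted p of 0.106, and Skil, a repressor of the pathway, had -0.23 (edgeR adjusted p 0.202, and 0.0407 by limma-voom with sample weights). Among 13 matrix proteases and inhibitors, Adamts1 and Mmp14 had the smallest p-values, with log2 fold changes of -0.25 and 0.19. Adamts1 had 11.6 CPM in knockout replicate 3, against 21.4 to 22.7 CPM in the other knockouts and 22.9 to 26.8 CPM in wildtype libraries. Its log2 fold change ran from -0.29 to -0.14 with 1 library left out. Cspg5 and Bcan came first among 13 brain proteoglycans and tenascins, at 0.115 and 0.086. In the insulin-like growth factor system Igfbp2 and Igfbp5, binding proteins of the growth factors, had -0.15 and -0.097, and in the retinoic acid pathway Dhrs3 and Rdh10 had 0.24 and -0.16. The edgeR adjusted p of the 8 genes named from the lists other than TGF-beta signalling was at least 0.213.

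Per kilobase of the longest GENCODE transcript, which puts genes on a comparable scale, Igf2 had the highest mean level over the 10 libraries at 22.0 CPM per kb. Nov, Col6a1 and Mgp came next, at 18.5, 16.5 and 14.6 CPM per kb. Fibrillar collagens reached at most 5.44 CPM per kb, in Col5a1, and Lox was lowest at 0.251 CPM per kb. Of other cell types, summed microglial markers were 213.5 to 257.1 CPM in knockout and 179.8 to 198.3 CPM in wildtype libraries. Among the 8 microglial markers, C1qb and C1qc were called higher, beside 0.213% of all tested genes. Blood markers were 69.8 to 101.5 CPM in knockout and 53.5 to 87.5 CPM in wildtype libraries. Ependymal markers were 17.2 to 23.7 CPM over all 10 libraries. Skeletal muscle markers, a sign of tissue from outside the skull, were 5.98 to 38.8 CPM in knockout and 6.72 to 15.9 CPM in wildtype libraries, highest in knockout replicate 2. No defining marker of these lists was at 0 in all 10 libraries.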

How the data were processed

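Values are raw counts per Ensembl gene and library as deposited by the authors. The submitters' processing notes name TopHat2 2.0.6, HTSeq, edgeR and limma, and settings, strand and genome build are not given in the sources used here. Another 10 per-library columns, many of whose entries have lost their decimal point, were not used. Adjusted p-values from the authors' deposited table were read for the 36 genes only.

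Tests were run in edgeR 4.0.16 under R 4.3.3, using filterByExpr (minimum count 10, minimum total 15), TMM scaling and a quasi-likelihood test with genotype as its only term, with p-values adjusted by Benjamini-Hochberg across the 14526 tested genes and a threshold of 0.05. CPM values are scaled by TMM, and their log2 takes a prior count of 2. Each SE was derived from the F statistic. The common biological coefficient of variation was 0.071, and low counts such as those of Lox add counting error to it. Chi-square per degree of freedom between replicates was at least 1.29, so no library was taken as a repeat of another. Nothing further is said of how the brains relate, so p-values measure the spread between these libraries. The method was tested on simulated data.

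The 36 genes, the gene lists, the rule for named genes (the 12 genes with the smallest p, the most abundant of each role, and in other lists called genes and the 2 smallest p-values) and the alternatives were chosen with earlier results of these data known. The alternatives changed the scaling (DESeq2 size factors, upper quartile), the filter (none, or 1 CPM in 5 libraries), the tool (DESeq2 1.42.0, and limma-voom from limma 3.58.1 with and without sample weights) and the libraries (each left out in turn), or used a block for the replicate number, the 7 shallower libraries, removal of each library's GC trend, and a threshold of 0.1. Depth class as a term was added after seeing the data. Leaving out knockout replicates 1 and 3 together was also tried then and dropped, because replicate 1 had been picked by its low values of these genes, and its values are not reported. Table positions were used as deposited, and GENCODE lengths and RefSeq promoters were matched by gene without mixing coordinates.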

Additional observations from a re-analysis of the deposited data

Results flagged for a closer look

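Within a group of 5 libraries, 4 values of the 36 genes lay far from the other 4 by Dixon's gap test, out of 72 groups examined. Chance flags about 1 group in 20. Fmod was low in knockout replicate 1, at 13.4 CPM against 18.9 to 21.1 CPM in the other knockouts. Postn was high in knockout replicate 3, at 8.05 CPM against 3.98 to 5.00 CPM. Ogn was high in wildtype replicate 2, at 11.4 CPM against 9.68 to 10.1 CPM in the other wildtype libraries. Lum was low in wildtype replicate 3, at 2.19 CPM against 3.73 to 3.93 CPM.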

How the results depend on the processing

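The median log2 fold change of the 36 genes stayed below 0 in each alternative run, from -0.18 to -0.065 with 1 library left out. The number of the 36 genes called was 0 in all libraries and 0 to 2 with 1 library left out. It was 2 without a low-count filter, by the DESeq2 Wald test, with the GC trend removed and at a threshold of 0.1 (Col3a1 and Igf2 each time), 1 by limma-voom with sample weights (Col3a1), and 3 with depth class as a term (Col3a1, Igf2 and Slc22a6). Adjusted p-values ran from 0.0192 to 0.185 for Col3a1 and from 0.0154 to 0.207 for Igf2. The count over all genes, 171, was 259 by the DESeq2 Wald test, 268 with the GC trend removed, 373 at a threshold of 0.1, 563 by limma-voom with sample weights, 31 in the 7 shallower libraries and 76 to 341 with 1 library left out. With the replicate number as a block it was 90, and none of the 36 genes was called. Same-numbered libraries did not deviate together (correlations -0.138 to 0.089), so the number was not taken as a pairing.

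Direction changed in some alternative for 13 of the 36 genes, none of them called. In the 7 shallower libraries, Cdh1 and Col6a3 had -0.39 and -0.36, Nov -0.036, Crabp2 0.18, Thbs1 0.063, Postn 0.040 and Fbln2 0.035. By the block, Cdh1 and Col6a3 had -0.057 and -0.050, by DESeq2 -0.017 and -0.0058, and with depth class -0.0053 and -0.056, where Postn had 0.0054. Upper-quartile scaling gave 0.0035 for Col5a2 and 0.011 for Serping1. Sample weights gave 0.040 for Col1a1 and Serping1 and -0.047 for Nov. With 1 library left out, the ranges were -0.15 to 0.16 for Cdh1, -0.20 to 0.032 for Col1a1, -0.080 to 0.038 for Col5a2, -0.0097 to 0.14 for Col6a1, -0.18 to 0.21 for Col6a3, -0.25 to 0.077 for Crabp2, -0.22 to 0.021 for Lox, -0.055 to 0.073 for Nov, -0.11 to 0.081 for Serping1 and -0.042 to 0.11 for Slc6a20a. The cause was not tested. Counts of 4 to 32 for Lox and 16 to 121 for Cdh1 limit what these libraries can show.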
